A study of Bos grunniens and Bos grunniens x Bos taurus with 6 samples.

Results

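The genes of the constitutive proteasome were followed in longissimus dorsi, a long muscle that runs along the back, of cattle-yak (Bos grunniens x Bos taurus, the hybrid of yak and cattle) and of yak (Bos grunniens). Genes were taken by symbol: PSMA, PSMB, PSMC, PSMD, PSME, PSMF and PSMG followed by a number, without the immunoproteasome subunits PSMB8, PSMB9 and PSMB10 and the interferon-induced activators PSME1 and PSME2. For each symbol the gene identifier with most reads under it was used, with all reads of that identifier. The 46 matching symbols came to 43 of the 31044 genes in the data, since PSMA7-A, PSMC3-A and PSMC3-B were second spellings on identifiers already counted. Of the 43 genes, 42 had at least 30 reads over the 6 libraries and were tested, among 10397 such genes in all. They comprise 14 subunits of the 20S core, 20 genes of the 19S cap, 3 other regulators and 4 assembly chaperones. PSME3IP1 and PSMC3IP, caught by the spelling alone, are not proteasome subunits, and PSMC3IP, with 2 reads, was not tested.

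Each group had 3 samples, sequenced as full-length nanopore cDNA that had been amplified by PCR. The labels give no treatment, age, sex, feeding or sequencing batch, and do not say which cattle breed or which parent the hybrids came from. Nor do they say whether each sample is another animal, so the p-values reflect only how these samples vary, and that variation may be technical. Libraries held 2382936, 2366057 and 2769106 counted reads in cattle-yak and 2350851, 2502603 and 2412511 in yak. Markers of skeletal muscle were abundant in every library, at 144757 to 157876 CPM (read counts scaled to a common library size, here with edgeR's TMM factors) summed over the list in cattle-yak and 204655 to 221741 in yak. Of the 9 muscle marker genes 2 rose (DES and TTN) and 3 fell, among them the actin gene ACTA1, whose symbol stood on 1.57% of the reads of its identifier, and the myoglobin gene MB. Over all genes tested 4.92% rose and 5.06% fell. Fibroblast markers, with 3 of 5 tested genes lower (COL1A2, COL3A1 and LUM), summed to 221 to 410.5 CPM in cattle-yak and 434 to 545 CPM in yak. COL1A1 and DCN, at log2 fold changes of -0.59 and 0.021, did not pass. Endothelial markers, with 1 of 4 tested genes higher (VWF, of 59 reads), summed to 31.3 to 62.0 CPM in cattle-yak and 28.5 to 36.1 CPM in yak. PECAM1 (0.25), KDR (0.29) and TEK (-0.42) did not pass. Adipocyte markers (FABP4 and CIDEC) summed to 1.93 to 16.7 CPM in cattle-yak and 14.1 to 21.2 CPM in yak. Red-cell markers, both lower (HBA with 37.3% of its reads under that symbol and HBB with 17.4%), summed to 0.359 to 2.32 CPM in cattle-yak and 2.70 to 25.1 CPM in yak. The adipocyte genes ADIPOQ, PLIN1 and LEP and the red-cell gene ALAS2 were matched to no gene. The part of these cells in the results below was not tested. In bulk muscle, fewer cells of a type and less RNA per cell cannot be told apart.

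The 26S proteasome degrades proteins tagged with ubiquitin. Its 20S core is a barrel of stacked rings, outer rings of alpha subunits (PSMA) that gate the entrance and inner rings of beta subunits (PSMB), of which PSMB5, PSMB6 and PSMB7 cut the substrate. The 19S cap binds the ubiquitin tag, removes it and threads the protein inward with a ring of ATPases (PSMC) held by the non-ATPase subunits (PSMD). In skeletal muscle this system degrades much of the contractile protein lost in atrophy, after muscle-specific ubiquitin ligases have marked it.

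Proteasome reads made up 0.790%, 0.673% and 0.705% of the cattle-yak libraries and 0.613%, 0.660% and 0.635% of the yak libraries, so all hybrid libraries were above all yak libraries by this unscaled share. After TMM scaling the groups overlapped, with core genes summing to 4127, 3434 and 3915 CPM in cattle-yak and 3441, 3875 and 3785 CPM in yak. Cap genes summed to 2821, 2365 and 2812 CPM in cattle-yak and 2638, 2927 and 2839.8 CPM in yak. Only PSMC6, an ATPase of the cap, passed the test among the 42 genes, and it was lower in cattle-yak, which is 2.38% of them (edgeR quasi-likelihood test, Benjamini-Hochberg adjusted p under 0.05 over all genes tested). Over all genes 9.98% were called, 4.92% higher and 5.06% lower. At an unadjusted p under 0.05 there were 4 of the 42 genes (PSMC6, PSMB5, PSMD10 and PSMF1), all lower in cattle-yak, against 25.1% of all genes, with 12.4% lower. DESeq2 also called PSMC6 alone. Of the 42 log2 fold changes, 21 were above 0 and 21 below, but with scaling by library size alone 32 were above and 10 below. That scaling moved the median of all genes to 0.23, against 0.041 with TMM, so levels are described below relative to the other genes.

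**Figure D1:**
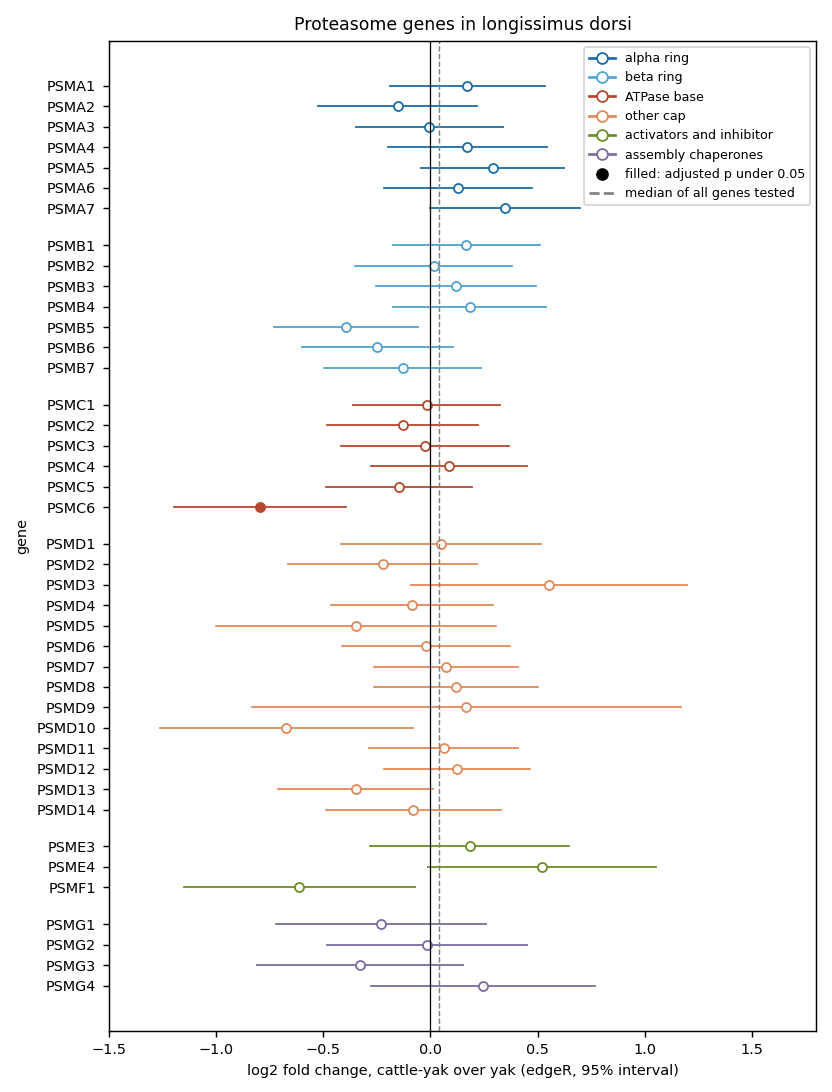
Log2 fold change of cattle-yak over yak for each of the 41 subunits, regulators and chaperones tested, from edgeR, grouped by role; lines are 95% intervals, the filled point is the gene with an adjusted p under 0.05 and the dashed line is the median of all genes tested (0.041). PSMC6 stands apart at -0.80, and most other intervals cross 0.

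The width of the intervals limits what could have been missed. For 36 of the 42 genes the 95% interval of the log2 fold change lay between -1 and 1, so a 2-fold difference in either direction was outside it. Over all genes tested this held for 31.5%. The median standard error (SE) was 0.18 over the proteasome genes and 0.38 over all genes. These comparisons with all genes were not matched for read number. Within the set the SE was 0.47 for PSMD9, with 104 reads, and 0.17 for PSMA7, with 9043 reads. The libraries of both groups did not overlap in 10 of the 42 genes, 5 higher and 5 lower in cattle-yak, against 29.8% of all genes tested (15.2% higher and 14.6% lower).

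PSMC6, known as RPT4 in yeast, had 159, 122 and 169 reads in cattle-yak, against 190, 248 and 226 in yak. Its level was 61.4, 46.4 and 60.6 CPM in cattle-yak and 83.6, 107 and 102 CPM in yak, so all 3 hybrid libraries were below all 3 yak libraries. The means were 56.2 ± 8.44 CPM in cattle-yak and 97.5 ± 12.3 CPM in yak (SD, n = 3 each). The log2 fold change was -0.80 ± 0.19 (SE), with an edgeR adjusted p of 0.0145. The call was lost without cattle-yak 2 (adjusted p = 0.0527), yak 2 (0.0628) or yak 3 (0.0647), and on assembled transcripts alone (-0.62, adjusted p = 0.114). Its adjusted p ranged between 0.00225 and 0.114 over the 16 alternatives, all of them with a lower level in cattle-yak.

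The other ATPases of the cap lay close to the yak level. PSMC4, the highest of the 6 in fold change, had 109.7, 98.5 and 106 CPM in cattle-yak and 91.5, 113 and 91.0 CPM in yak. These ranges overlap (log2 fold change 0.09 ± 0.17, edgeR adjusted p = 0.803). PSMC1 was at -0.02, PSMC3 at -0.02, PSMC2 at -0.13 and PSMC5 at -0.15 on the log2 fold change scale, with edgeR adjusted p between 0.61 and 0.963. In all, 5 of the 6 ATPases were below 0 with TMM, though with library size alone 5 of the 6 were above 0. With TMM, 1 of the 6 was above the median of all genes. The other scalings run gave the same count, but they shift all genes by nearly the same amount and could hardly change it.

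**Figure D2:**
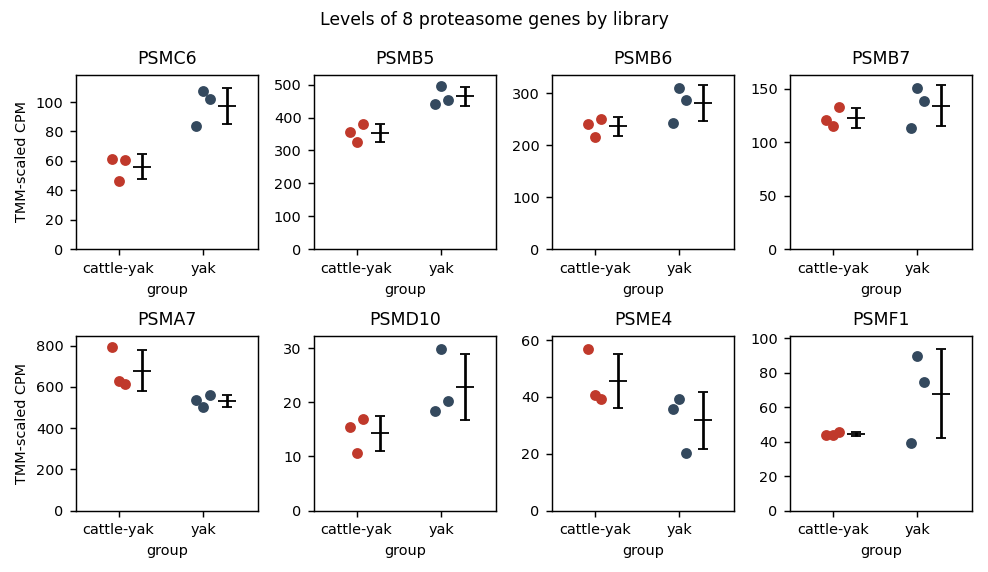
TMM-scaled CPM in each library (points) with mean and SD (bar, n = 3) for 8 genes named by the rule for full values, cattle-yak left of yak. PSMC6, PSMB5 and PSMD10 have every cattle-yak point below every yak point, PSMA7 and PSME4 the opposite, and PSMF1 spreads more widely among the yak libraries.

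The catalytic subunits of the core did not pass the test. PSMB5, which carries the chymotrypsin-like activity, had 355, 326 and 380.2 CPM in cattle-yak, against 442, 497 and 455 CPM in yak. The groups do not overlap, and the log2 fold change was -0.39 ± 0.16 with a 95% interval of -0.73 to -0.057 (edgeR adjusted p = 0.131). PSMB6, of the caspase-like activity, had 242, 217 and 251 CPM in cattle-yak and 243, 311 and 288 CPM in yak. The highest hybrid library lies above the lowest yak library (log2 fold change -0.25 ± 0.17, edgeR adjusted p = 0.383). PSMB7, of the trypsin-like activity, had 121, 115 and 133 CPM in cattle-yak and 114, 151 and 139 CPM in yak. Its groups overlap as well (-0.13 ± 0.17, edgeR adjusted p = 0.687), and with library size alone its value was 0.058.

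The name PSMB6 stood on 3.23% of the reads of its identifier. The other 96.8% belonged to 1 reference transcript that carried no symbol and was described as PSMB6. On rows with the symbol alone the log2 fold change was 0.51 ± 0.32, with an edgeR adjusted p of 0.352. PSMB5 likewise rested on its reference transcript, with 92.8% of its reads, and its assembled transcripts alone gave 0.30 ± 0.23 (edgeR adjusted p = 0.459).

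Of all members, PSMA7 of the alpha ring had the most reads, with 2053, 1656 and 1708 reads in cattle-yak and 1223, 1162 and 1241 in yak. Scaled, that was 793, 630.0 and 613 CPM in cattle-yak and 538, 502 and 559 CPM in yak, with no overlap. Its log2 fold change of 0.35 ± 0.17 did not pass (edgeR adjusted p = 0.204), but with library size alone it was 0.54 ± 0.16 and passed (edgeR adjusted p = 0.0462), within a range of 0.0462 to 0.555 over the 15 alternatives. PSMA2 was the lowest of the ring, with 408, 284 and 354 CPM in cattle-yak and 356, 384 and 424 CPM in yak. Its groups overlap (-0.15 ± 0.17, edgeR adjusted p = 0.629), and its sign turned with library size alone (0.035). PSMA5 was higher in all 3 cattle-yak libraries, at 232, 212 and 219.5 CPM, against 170.3, 189 and 183 CPM in yak, without passing (0.29 ± 0.16, edgeR adjusted p = 0.269). The log2 fold changes of PSMA1, PSMA3, PSMA4 and PSMA6 lay between -0.0048 and 0.17.

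Outside the catalytic sites, PSMB4 was the highest of the beta ring, with 285, 234 and 292 CPM in cattle-yak and 209, 265 and 241 CPM in yak. The groups overlap (0.18 ± 0.17, edgeR adjusted p = 0.54). PSMB1 had 243, 244 and 250.4 CPM in cattle-yak and 190.1, 239.8 and 226 CPM in yak, which do not overlap (0.17 ± 0.16, edgeR adjusted p = 0.556). PSMB2 and PSMB3 were at 0.016 and 0.12. Of the 7 beta subunits 3, the catalytic ones, were below 0 with TMM, while with library size alone 5 of the 7 were above 0. With TMM, 3 of the 7 were above the median of all genes, a count that the other scalings run could hardly change either.

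**Figure D3:**
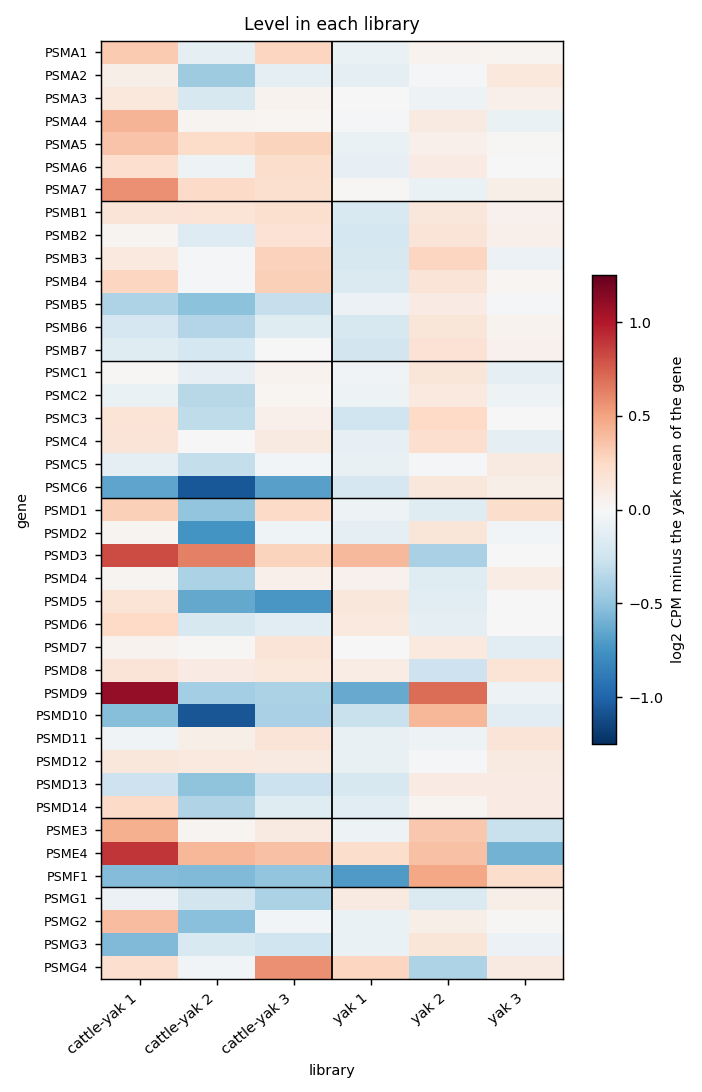
Level of each of the 41 genes (rows, grouped by role as alpha ring, beta ring, ATPases, other cap genes, regulators and chaperones) in each library (columns, cattle-yak left of yak), as log2 CPM minus the gene's mean over the yak libraries. Cattle-yak 2 is paler or bluer than the other hybrid libraries in many cap rows, with a cap median of -0.33.

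Among the other genes of the cap, PSMD10 had the lowest fold change. It encodes gankyrin, a chaperone that helps the ATPases assemble and is absent from the finished particle. Its level was 15.5, 10.7 and 16.9 CPM in cattle-yak and 18.5, 29.8 and 20.3 CPM in yak. The groups do not overlap (-0.67 ± 0.28, edgeR adjusted p = 0.142). PSMD3, a subunit of the lid, had the highest, with 18.2, 16.0 and 12.6 CPM in cattle-yak and 13.6, 7.78 and 10.4 CPM in yak. Here 1 yak library lies above the lowest hybrid library (0.55 ± 0.30, edgeR adjusted p = 0.279).

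PSMD13, also of the lid, was lower in every hybrid library, at 123, 103 and 122 CPM, against 128, 157 and 158 CPM in yak (-0.35 ± 0.17, edgeR adjusted p = 0.218). PSMD12, another lid subunit, was narrowly higher in each, at 141, 139.6 and 138 CPM in cattle-yak and 120.1, 126 and 138 CPM in yak (0.13 ± 0.16, edgeR adjusted p = 0.673). PSMD14, the deubiquitinase that cuts the tag from the substrate, was at -0.08 on the log2 fold change scale, and PSMD4, a ubiquitin receptor, also at -0.08. PSMD1 (0.05) and PSMD2 (-0.22), the large scaffolds of the base, PSMD6 (-0.02), PSMD7 (0.07), PSMD8 (0.12) and PSMD11 (0.06) of the lid, and PSMD5 (-0.35) and PSMD9 (0.17), which assist assembly, did not pass either. PSMD9 had 104 reads and an SE of 0.47, the least precise of the set.

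The identifier of PSMD6 held 29.7% of its reads under that symbol. The other 70.3% carried the name PRICKLE2, its neighbour in RefSeq's gene order for the yak assembly Bosgru_T2T1.0, so the 2 genes cannot be told apart there. Without PSMD6 the cap median was -0.023, close to the -0.022 with it.

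None of the 3 regulators other than the cap passed the test, with 2 log2 fold changes above 0 (PSME4 and PSME3) and 1 below (PSMF1). PSME4, the PA200 activator that opens the core without ubiquitin, had 56.8, 40.7 and 39.5 CPM in cattle-yak and 35.6, 39.3 and 20.3 CPM in yak. The lowest hybrid value is barely above the highest yak value (0.52 ± 0.25, edgeR adjusted p = 0.209). PSMF1, the PI31 protein that binds the core, had 44.0, 43.7 and 45.6 CPM in cattle-yak and 39.2, 89.9 and 74.7 CPM in yak. Yak 1 lies below every hybrid library and the other two far above (-0.61 ± 0.25, edgeR adjusted p = 0.143). Without yak 1 the gene passed (-0.89 ± 0.21, edgeR adjusted p = 0.0217), as it did with no filter on low counts (adjusted p = 0.0431), in a range of 0.0217 to 0.475 over the 15 alternatives. PSME3, the nuclear activator PA28 gamma, was at 0.18 ± 0.22 (edgeR adjusted p = 0.645).

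The assembly chaperones build the alpha ring. PSMG3 had 17.8, 22.8 and 21.9 CPM in cattle-yak and 24.6, 29.0 and 24.8 CPM in yak, with no overlap (-0.33 ± 0.23, edgeR adjusted p = 0.402). Its symbol stood on 10.7% of its reads, and those rows alone gave 0.48 ± 0.58. PSMG4 had 27.4, 23.2 and 35.2 CPM in cattle-yak and 28.6, 18.1 and 25.7 CPM in yak, which overlap (0.25 ± 0.25, edgeR adjusted p = 0.574). PSMG2 was at -0.02 and PSMG1 at -0.23. The identifier of PSMG1 held 26.4% of its reads under that name and most of the rest under its RefSeq neighbour BRWD1.

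The core was set against the cap. The median log2 fold change was 0.12 over the 14 core genes, none of which passed the test, and -0.022 over the 20 cap genes, with PSMC6 lower, against 0.041 over all genes. With library size alone both medians were above 0, at 0.31 for the core and 0.17 for the cap. Relative to the median of all genes they were 0.084 and -0.059, against 0.083 and -0.063 with TMM. A change of scaling shifts all genes by nearly the same amount, so this likeness is not a check of the result. The cap median also turned positive without cattle-yak 2 (0.08), with edgeR's default filter on low counts (0.016) and on reference (0.049) or assembled transcripts (0.021) alone. Within the core, 8 of 14 genes lay above the median of all genes, and within the cap 8 of 20. The alpha ring had a median of 0.17, the beta ring 0.016, the ATPases -0.076 and the rest of the cap 0.015 with TMM, all 4 of them above 0 with library size alone.

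Reads summed over the core and over the cap need no scaling between libraries when they are divided by each other. The log2 ratio of core to cap reads was 0.55, 0.54 and 0.48 in cattle-yak and 0.38, 0.40 and 0.41 in yak. All 3 hybrid libraries were above all 3 yak libraries. The means were 0.52 ± 0.039 in cattle-yak and 0.40 ± 0.016 in yak (SD, n = 3 each), a difference of 0.12 on the log2 scale, larger than the SD within either group. PSMA7, with most reads of the core, carried part of that difference. Without it the ratio was 0.24, 0.25 and 0.23 in cattle-yak and 0.14, 0.20 and 0.18 in yak, a difference of 0.064 with the groups still apart. Each ratio is of read numbers, with no correction for gene length, so it ranks libraries and not amounts of protein.

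**Figure D4:**
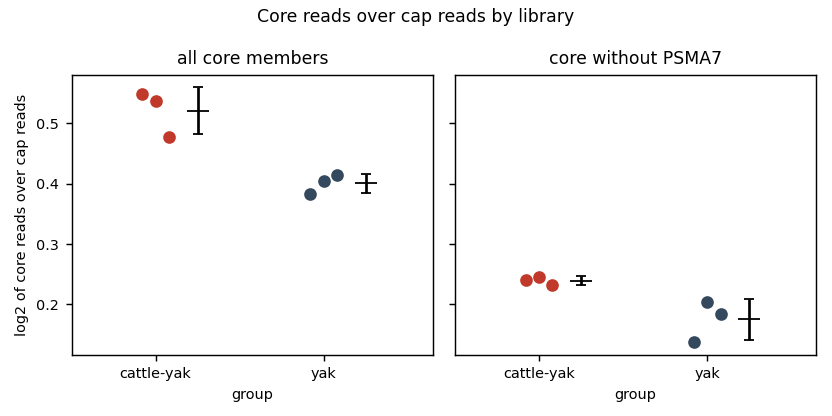
Log2 of reads summed over core genes divided by reads summed over cap genes in each library (points), with mean and SD (bar, n = 3), for all core genes (left) and without PSMA7 (right). The cattle-yak libraries lie above the yak libraries in both panels, by 0.12 and 0.064 on average.

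Many reads of these genes came from transcripts assembled from the reads and not from the reference annotation. Reference transcripts held 37.1%, 36.1% and 39.1% of proteasome reads in cattle-yak, against 41.4%, 42.7% and 41.8% in yak. The groups do not overlap, while over all genes the same share was 24.4%, 22.3% and 24.6% in cattle-yak and 24.2%, 24.5% and 23.9% in yak, which do. With at least 1 read, 845, 800 and 842 transcripts of these genes were found in cattle-yak libraries and 742, 794 and 738 in yak libraries. The reads of these genes numbered 18818, 15932 and 19531 in cattle-yak and 14418, 16514 and 15330 in yak. The transcript numbers were not corrected for these reads.

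Of 236 transcripts of these genes with at least 30 reads, 6 rose and 2 fell, or 3.39%, against 12.8% of all 27038 transcripts tested (6.53% higher and 6.26% lower, edgeR adjusted p under 0.05). The reference transcript of PSMC6 (ENSBGRT00000008056) had 69, 63 and 81 reads in cattle-yak and 112, 124 and 126 in yak. It was lower in every hybrid library than in any yak library (log2 fold change -0.97 ± 0.22, edgeR adjusted p = 0.00694). That call held under each of the 9 alternatives run, with an adjusted p of at most 0.0294. It held 47.7% ± 4.13 of the PSMC6 reads in cattle-yak and 54.9% ± 4.53 in yak (SD, n = 3 each). The other transcript that fell, TALONT000665637 of PSMD13, had 134, 116 and 137 reads in cattle-yak and 159, 192 and 178 in yak (-0.65 ± 0.20, edgeR adjusted p = 0.0408). Its share of PSMD13 reads was 41.7% ± 1.17 in cattle-yak and 52.8% ± 2.06 in yak (SD, n = 3 each). The call was lost without any 1 of the 6 libraries, at an adjusted p of up to 0.118.

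The transcripts that rose were mostly minor ones. TALONT000895229 of PSMB4 had 16, 16 and 13 reads in cattle-yak and 4, 2 and 2 in yak, with no overlap (2.25 ± 0.52, edgeR adjusted p = 0.00828), a call kept under all 9 alternatives. TALONT000690082 of PSMG4 had 18, 8 and 16 reads in cattle-yak and 3, 3 and 2 in yak (2.14 ± 0.54, edgeR adjusted p = 0.0147), and was lost without yak 3 (0.0602). TALONT001272094 of PSMC1, an ATPase of the cap, had 18, 19 and 12 reads in cattle-yak and 4, 4 and 4 in yak (1.81 ± 0.47, edgeR adjusted p = 0.0172). That call was lost without cattle-yak 2 or any 1 yak library (up to 0.0587).

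TALONT000344066 of PSMA7 had 25, 16 and 19 reads in cattle-yak and 3, 6 and 10 in yak (1.44 ± 0.45, edgeR adjusted p = 0.0448). It made up 0.874% of the PSMA7 reads, and its call was lost without any 1 library other than yak 3 (up to 0.167). A transcript of PSMC5 (TALONT000214994, 1.40 ± 0.40) and another of PSMB4 (TALONT000895270, 1.30 ± 0.40) also rose. The PSMC5 one lost its call without any 1 library other than cattle-yak 3 (up to 0.113) and the PSMB4 one without any than cattle-yak 1 (up to 0.119).

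Transcript usage, the share of each transcript in its gene, was tested in 34 of these genes and passed in 2, PSMD12 and PSMG4, or 5.88%, against 5.24% of the 2863 genes tested. In PSMD12 the reference transcript ENSBGRT00000014610 held 18.3%, 18.3% and 18.4% of reads in cattle-yak, against 29.7%, 31.8% and 30.6% in yak. The assembled TALONT000200731 held 26.8%, 27.5% and 23.8% in cattle-yak and 19.4%, 18.8% and 15.0% in yak. Neither transcript's shares overlap between the groups, and the usage test gave an adjusted p of 0.0183 (edgeR), while the level of the gene did not pass. In PSMG4 the leading transcript TALONT000690162 held 71.8%, 80.3% and 78.6% in cattle-yak and 93.8%, 92.9% and 89.5% in yak, and TALONT000690082 held 25.4%, 13.1% and 16.3% in cattle-yak and 4.62%, 7.14% and 3.51% in yak (adjusted p = 0.0273). The PSMD12 call was lost without cattle-yak 2 or any 1 yak library (up to 0.148) and the PSMG4 call without cattle-yak 1 or any 1 yak library (up to 0.159), and neither passed by the Simes method.

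Each catalytic subunit has an interferon-induced counterpart that can take its place in new particles: PSMB9 for PSMB6, PSMB10 for PSMB7 and PSMB8 for PSMB5. PSMB10 took 23.0%, 20.3% and 25.6% of the reads of its pair in cattle-yak and 10.7%, 12.5% and 8.61% in yak. PSMB8 took 3.97%, 6.24% and 10.4% in cattle-yak and 1.86%, 1.46% and 2.32% in yak. Neither pair overlaps between the groups, while the share of PSMB9, at 0.949%, 3.72% and 3.58% in cattle-yak and 0.541%, 0.963% and 2.14% in yak, does. Over the 3 pairs together the counterparts made up 8.88% ± 2.37 in cattle-yak and 3.12% ± 0.251 in yak (SD, n = 3 each). By gene, PSMB10 (1.20 ± 0.26, edgeR adjusted p = 0.00873) and PSMB8 (1.60 ± 0.39, edgeR adjusted p = 0.0204) rose, and PSMB9, PSME1 and PSME2 did not pass. The name PSMB9 stood on 32.1% of the 78 reads of its identifier.

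The PSMB8 call was lost without cattle-yak 3, yak 1 or yak 2 (adjusted p up to 0.0908) and that of PSMB10 without yak 3 (0.0523). Macrophage markers summed to 48.3, 114 and 113 CPM in cattle-yak and 29.0, 22.9 and 54.0 CPM in yak, so the groups overlap. Of the 8 tested genes 2 were higher (CD163 and CTSS), against 4.92% of all genes tested, and 6 did not pass. CD163 had 63 reads, and the name CTSS stood on 53.4% of the 369 reads of its identifier. Lymphocyte markers summed to 2.32 to 14.0 CPM in cattle-yak and 1.32 to 6.75 CPM in yak, where PTPRC and CD79A had no read. Over all libraries PTPRC had 6 reads and CD79A 1, too few to be tested. The part of these cells in the immunoproteasome result was not tested.

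**Figure D5:**
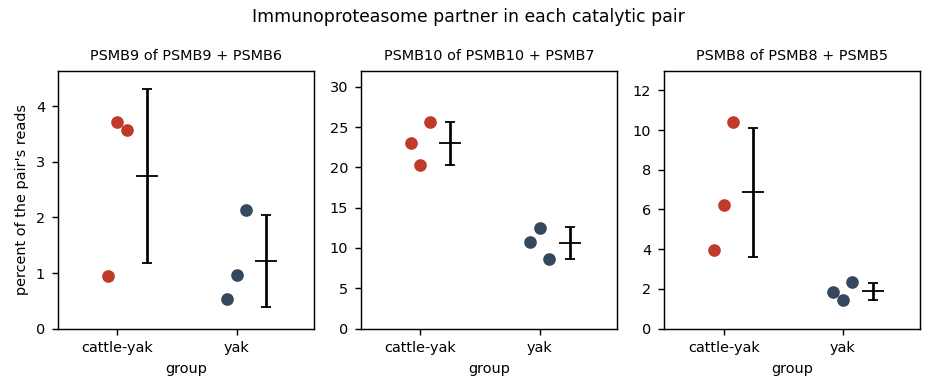
Percent of the reads of each catalytic pair that belong to the interferon-induced partner in each library (points), with mean and SD (bar, n = 3), cattle-yak left of yak. For PSMB10 and PSMB8 every cattle-yak point is above every yak point, and for PSMB9 the groups overlap.

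Of 11 tested subunits and partners whose names do not begin with PSM, 1 rose and 1 fell. ZFAND5, a zinc finger protein that stimulates the proteasome in atrophying muscle, had 50.2, 79.5 and 68.9 CPM in cattle-yak and 32.6, 29.8 and 25.7 CPM in yak. All hybrid libraries were above all yak libraries (1.17 ± 0.22, edgeR adjusted p = 0.00294), and on reference transcripts alone the log2 fold change was 2.25. SEM1, the smallest subunit of the lid, fell at the identifier with most of its reads, with 234, 296 and 299 reads in cattle-yak and 471, 473 and 328 in yak (-0.85 ± 0.18, edgeR adjusted p = 0.0083).

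A second identifier described as SEM1 had 285, 228 and 356 reads in cattle-yak and 117, 83 and 127 in yak, and it rose (1.17 ± 0.21, edgeR adjusted p = 0.00288). Summed over both, SEM1 had 519, 524 and 655 reads in cattle-yak and 588, 556 and 455 in yak, and did not pass (-0.15 ± 0.17, edgeR adjusted p = 0.618). The fall at the first identifier was not found in this sum. POMP, the chaperone that completes the core, was at -0.18 ± 0.16 and ADRM1, a ubiquitin receptor of the cap, at 0.12 ± 0.17, and neither passed.

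None of the 4 tested genes that control proteasome gene expression passed. NFE2L1, the factor that raises proteasome genes when the particle is inhibited, was at 0.15 ± 0.20 (edgeR adjusted p = 0.682), although its name stood on 38.0% of its reads. None of 4 shuttle genes and none of 5 ubiquitin and E1 genes passed. Of 6 genes of the VCP segregase, which extracts tagged proteins, NPLOC4 alone rose, at an identifier of 71 reads (2.70 ± 0.58, edgeR adjusted p = 0.00807). Its log2 fold change was 1.51 over all rows with its symbol and 3.51 without yak 3, and it passed in both.

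Upstream of the particle, 4 of 8 tested genes of the muscle ubiquitin ligase list rose in cattle-yak, against 4.92% of all genes tested. The list was chosen with earlier results of these data known, so this share is a description and not independent support. The listed names TRIM55 and MUSA1 were matched to no gene. Of the 8, FBXO30 had 4.90% of the 306 reads of its identifier under that name and ASB2 61.4% of 1090, and neither passed. TRIM63, the ligase MuRF1 that marks myosin and other thick-filament proteins, had 393, 439 and 315 CPM in cattle-yak and 117, 66.1 and 161 CPM in yak (1.74 ± 0.28, edgeR adjusted p = 0.00341). FBXO40 had 146, 151 and 164 CPM in cattle-yak and 66.9, 74.8 and 73.8 CPM in yak (1.10 ± 0.17, edgeR adjusted p = 0.000715), with 38.8% of its reads under that name. KLHL40, which stabilises thin-filament proteins, had 112, 128 and 123 CPM in cattle-yak and 67.8, 41.9 and 69.8 CPM in yak (1.02 ± 0.20, edgeR adjusted p = 0.00525). None of these 3 overlaps between the groups.

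TRIM54, or MuRF3, rose as well (0.68 ± 0.17, edgeR adjusted p = 0.0202), a call lost without cattle-yak 1 or any 1 yak library (up to 0.0948). FBXO32, or atrogin-1, was higher in all 3 hybrid libraries, at 141, 157 and 149 CPM in cattle-yak and 122, 60.1 and 37.4 CPM in yak, and did not pass (1.03 ± 0.37, edgeR adjusted p = 0.129). The median log2 fold change was 0.85 over the 8 ligase genes and 0.91 over the 5 immunoproteasome and PA28 genes. It was -0.0048 over the 41 proteasome genes, against 0.041 over all genes tested. The 0.91 is the value of PSMB9 itself (0.91 ± 0.58, edgeR adjusted p = 0.359), and the 5 genes ran from -0.055 (PSME2) to 1.60 (PSMB8).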

How the data were processed

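The deposited table gives the authors' read counts, in whole numbers, for each transcript in each of 6 libraries. It also gives CPM, which the authors computed from these counts and the library totals (equal within 0.005). Per the labels' protocols, total RNA went into nanopore cDNA-PCR libraries. Tools listed in the submitters' processing notes are GSNAP, minimap2 and fastp, with no version. The genome build is not given in the sources used here.

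Counts were summed by gene identifier over 179856 transcripts, leaving out 61 without one (at most 0.00249% of a library). Genes and transcripts with 30 or more reads over the 6 libraries entered the robust quasi-likelihood test of edgeR 4.0.16 (R 4.3.3, TMM, no replicate block). Usage was tested with diffSpliceDGE for transcripts with 5% or more of a gene's reads. SE is the log2 fold change over the square root of F. Reads were amplified and carry no molecular identifiers, so they are not independent molecules. The members, gene lists and tests were chosen with earlier results of these data known. Named in full were members past the threshold, the catalytic subunits, and the highest and lowest fold change of each class with 100 or more reads. The full values of PSMA5, PSMB1, PSMD12, PSMD13 and FBXO32, and the remarks on POMP, ADRM1 and NFE2L1, were added after their values were seen. DESeq2 1.42.0, other scalings and filters, and fits without each library were alternatives. The tests were also run on simulated counts with known changes, drawn with the same variability for every gene, which these data need not share. Figures were drawn with matplotlib 3.10.9.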

Additional observations from a re-analysis of the deposited data

How the results depend on the processing

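With library size alone as the scaling, 1 member was higher (PSMA7), the core median log2 fold change was 0.31 and the cap median 0.17, 11 member transcripts were higher and 1 lower, and PSMA2 (0.035) and PSMB7 (0.058) turned positive. With no low count filter 2 members were lower. Leaving out each library gave 0 to 2 members lower, 2 to 5 transcripts higher, 1 to 2 lower, 0 to 2 members with changed usage, and a core minus cap median of 0.11 to 0.23 (0.15 with all libraries). Usage passed in 6 members with no minimum share and in 0 by the Simes method. On rows of the symbol only, PSMB6 (0.51) and PSMG3 (0.48) turned positive. On assembled transcripts only, an alternative chosen after seeing the data, 0 members were lower, and PSMB5 (0.30), PSMB6 (0.47) and PSMG3 (0.44) turned positive. Also chosen then were the core without PSMA7, which gave a core to cap difference of 0.064, and the summed SEM1 (-0.15). The causes were not tested, beyond what each alternative leaves out.

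Samples of the 2 groups with the same number did not deviate together (correlations -0.041, -0.012 and 0.012), so the numbers were not taken as pairs. With the replicate number as a block, 1 member was lower, 4 transcripts were higher and 1 lower, and usage passed in 1 member. Of 427 values of named genes and transcripts under an alternative, 374 kept their direction and side of the threshold, 43 lost the call, 3 gained one and 7 turned. The 374 include genes that were not called in the main test and stayed uncalled. They therefore do not measure how often a call held. Precision is limited by 3 samples a group and by the reads of each gene.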
